A study of Mus musculus with 6 samples.

Results

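The genes described here are the 4 adult globin genes of the mouse and 5 genes that encode enzymes of heme synthesis. The globins are Hba-a1, Hba-a2, Hbb-bs and Hbb-bt, and the enzyme genes are Alas2, Alad, Urod, Cpox and Fech. They were chosen by name, and all 9 were found among the 44678 genes of the deposited tables. The libraries came from the spleens of untreated mice, and the sample records describe the cells as CD8a+ leukocytes. The study's text presents its sequencing as a question about dendritic cells and does not name the cells sequenced, so the records were followed. There were 3 libraries of miR-144/451 knockout (KO) mice and 3 of wild type (WT) mice. Per the methods of the study, both kinds of mice had a C57BL/6J background and were between 8 and 12 weeks old, and the KO mice lacked a DNA segment that holds both miRNA precursors. The records give each library its own name but do not say whether each came from a separate mouse, so the p-values measure the spread between these libraries, which may be technical.

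Hemoglobin is a tetramer of alpha- and beta-globin chains, each holding a heme group, and it is made in large amounts in erythroid cells. Heme is built in steps that begin and end in the mitochondrion, where ALAS2 catalyses the first step in erythroid cells and ferrochelatase, the product of Fech, inserts the iron at the end. Adult mice make red cells in the spleen as well as in the marrow, and both deleted miRNAs are themselves strongly induced in erythroid cells, so these genes were used to ask how much erythroid RNA each library held and whether it differed with the genotype.

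The libraries held between 8143971 and 8876570 counts, at which 3 counts, the limit used for detection, equal 0.338 to 0.368 counts per 1000000 (CPM). This limit and the Wilson intervals of shares given below cover counting error only, whereas the intervals of fold changes rest on the spread between libraries. Replicates of one genotype differed far beyond counting error, with chi-square values per degree of freedom between 6.55 and 23.5 for pairs of libraries. The precursors Mir144 and Mir451a were listed at 0 in all 6 libraries, so the deletion could not be checked in these data. Cd8a was read in every library, at 692, 1030 and 967 CPM in WT and at 696, 481 and 1020 CPM in KO libraries 1 to 3. The records call the cells CD8a+, but B cell markers summed to between 1300 and 3060 CPM, so transcripts of other spleen cells were present in each library.

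All 9 genes passed the filter on low counts, and no difference between KO and WT was detected for any of them. In edgeR (quasi-likelihood test, Benjamini-Hochberg adjustment, 13024 genes tested), 0 of the 9 had an adjusted p under 0.05, where 4 genes of all those tested did (0.0307%). At an unadjusted p under 0.05 the count was also 0 of 9, against 6.25% of all tested genes. DESeq2 called 0 of the 9 as well, against 0.43% of all genes. For none of the 9 did the 3 KO libraries all lie on one side of the 3 WT libraries, a pattern seen for 11.5% of all genes. The globins and Alas2 nevertheless differed greatly from library to library within each genotype, whereas the other 4 enzyme genes varied less.

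**Figure D1:**
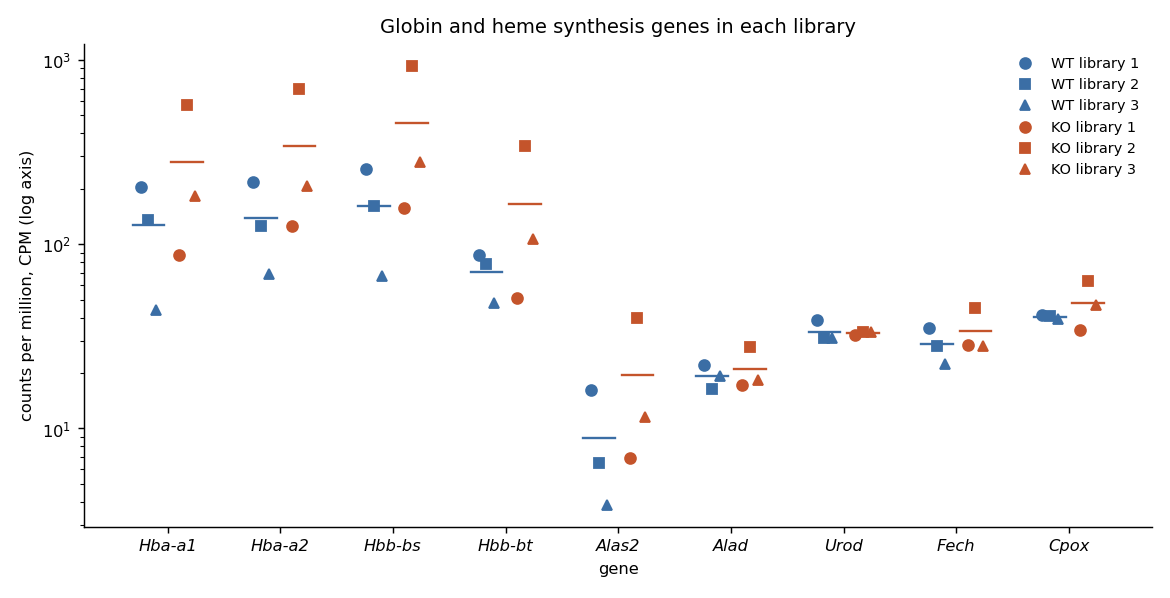
CPM on a log axis for each gene in the 3 WT libraries (blue) and the 3 KO libraries (orange), with horizontal lines at the group means. The globins and Alas2 spread between 7.1-fold and 13.9-fold over the 6 libraries with KO library 2 at the top, while Urod spread 1.26-fold.

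The 2 alpha-globin genes lie on the plus strand of chromosome 11 of GRCm38, with Hbq1b between them, Hba-a1 (ENSMUSG00000069919) at chr11:32283511-32284465 and Hba-a2 (ENSMUSG00000069917) at chr11:32296489-32297298. The 2 beta-globin genes of the C57BL/6J haplotype lie on the minus strand of chromosome 7, Hbb-bs (ENSMUSG00000052305) at chr7:103826534-103828096 and Hbb-bt (ENSMUSG00000073940) at chr7:103812524-103813996. Within each pair the coding sequences are almost the same, and this matters for how reads were divided between them. Over the 429 coding bases, Hba-a1 and Hba-a2 have 1 difference, C381T, counted from 1 at the start codon with the base of Hba-a1 first. Over the 444 coding bases, Hbb-bs and Hbb-bt have 1 difference as well, C417T, with the base of Hbb-bs first. Neither changes the protein, so the genes of a pair encode the same 142 and the same 147 residues. The windows below, printed 5′ to 3′ on the coding strand and read from GENCODE M21 transcripts, show these single bases in capitals, all in exon 3.
Hba-a1, chr11:32284323-32284363: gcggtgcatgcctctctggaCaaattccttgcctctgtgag
Hba-a2, chr11:32297140-32297180: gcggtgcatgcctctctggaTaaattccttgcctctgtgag
Hbb-bs, chr7:103826672-103826712: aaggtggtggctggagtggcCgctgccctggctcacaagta
Hbb-bt, chr7:103812663-103812703: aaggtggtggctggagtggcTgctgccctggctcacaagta

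Of the 31-base words in the transcript compared, 71.3% of those of Hba-a1 also occur in Hba-a2, and 91.0% of those of Hba-a2 occur in Hba-a1. For the beta pair the shares are 66.9% of Hbb-bs and 59.4% of Hbb-bt. Estimated counts need not be whole where reads are shared between genes. For Hba-a1 and Hba-a2 they lay more than 0.1 from a whole number in 6 of 6 libraries, and for Hbb-bs and Hbb-bt in 3 of 6, where the 5 enzyme genes did so in at most 1 library each. The split of reads within a pair is therefore uncertain, and the sum of a pair is the safer quantity.

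Hba-a1 was at 205, 136 and 44.1 CPM in WT libraries 1 to 3 and at 87.5, 570 and 183 CPM in KO libraries 1 to 3. Hba-a2 was at 218, 126 and 69.2 CPM in WT and at 126, 699 and 206 CPM in KO. KO library 2 was the highest and WT library 3 the lowest for both, and the other KO libraries lay within the WT range. The means were 128 ± 80.5 CPM in WT and 280 ± 255 CPM in KO for Hba-a1 (SD, n = 3), and 138 ± 75.2 and 343 ± 310 CPM for Hba-a2 (SD, n = 3). The log2 fold change, KO minus WT, was 1.1 (SE, the standard error, 0.70) for Hba-a1, and its edgeR adjusted p was 0.819. It was 1.30 (SE 0.63) for Hba-a2, with an edgeR adjusted p of 0.816. Both 95% intervals were wide and held 0, from -0.52 to 2.73 for Hba-a1 and from -0.16 to 2.76 for Hba-a2.

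Hbb-bs was at 255, 161 and 67.0 CPM in WT libraries 1 to 3 and at 157, 929 and 280 CPM in KO libraries 1 to 3. Hbb-bt, the lower of the beta genes, was at 87.1, 78.0 and 48.0 CPM in WT and at 51.4, 341 and 107 CPM in KO. Again WT library 3 was the lowest and KO library 2 the highest, at 3.32 times the next library for Hbb-bs and 3.19 times for Hbb-bt. KO library 3 lay above all WT libraries for both beta genes, but KO library 1 lay below WT libraries 1 and 2, so the groups overlapped. The means were 161 ± 94.2 and 455 ± 415 CPM for Hbb-bs and 71.0 ± 20.4 and 166 ± 154 CPM for Hbb-bt, WT before KO (SD, n = 3). Hbb-bs had the largest difference of the 9 genes in edgeR, a log2 fold change of 1.48 (SE 0.67), with a 95% interval from -0.07 to 3.02 and an adjusted p of 0.798. For Hbb-bt the log2 fold change was 1.21 (SE 0.60), with a 95% interval from -0.17 to 2.58 and an edgeR adjusted p of 0.816.

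Taking the 4 globin genes as 1 sum gave 765.2, 500.9 and 228.4 CPM in WT libraries 1 to 3 and 421.8, 2539 and 775.2 CPM in KO libraries 1 to 3. Even in KO library 2 this was 0.254% of the counts (95% Wilson interval 0.25 to 0.257), and in WT library 3 it was 0.0228% (0.0218 to 0.0239). The intervals are narrow against the 11.1-fold range over the libraries. From low to high the order was WT3, KO1, WT2, WT1, KO3 and KO2, and WT1 and KO3 nearly coincided. The KO mean was 2.5 times the WT mean, and without KO library 2 it was 1.2 times the WT mean. Since these are bulk libraries, fewer erythroid cells and less globin RNA per cell cannot be told apart.

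Hemoglobin is built from equal numbers of alpha and beta chains. The counts of both kinds of transcript were close to each other in every library. These counts are not corrected for transcript length and do not measure chains. The ratio of alpha to beta counts was 1.23, 1.1 and 0.985 in WT libraries 1 to 3 and 1.02, 0.999 and 1.0 in KO libraries 1 to 3. It varied 1.25-fold while the level varied 11.1-fold. The KO libraries lay close together (1.01 ± 0.0116, SD, n = 3) and inside the wider WT range (1.11 ± 0.125, SD, n = 3). The mean log2 ratio, KO minus WT, was -0.13, and it was -0.04 without WT library 1, the library with the highest ratio.

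Within the alpha pair, Hba-a1 took 48.4%, 52.1% and 38.9% of the counts in WT libraries 1 to 3 and 41.1%, 44.9% and 47.0% in KO libraries 1 to 3. Within the beta pair, Hbb-bs took 74.6%, 67.4% and 58.3% in WT and 75.4%, 73.2% and 72.4% in KO. Hbb-bs was thus the major beta transcript in each library, and Hba-a2 was the higher alpha gene in 5 of 6 libraries, all but WT library 2. The 95% Wilson interval of the Hba-a1 share lay wholly below 50% in WT library 3 and in all 3 KO libraries. The lowest share in both pairs was that of WT library 3, the library with the fewest globin counts, with 95% Wilson intervals of 35.9% to 42.2% for Hba-a1 and 55.1% to 61.4% for Hbb-bs. The groups overlapped for both shares. How the counting divided shared reads may enter these shares, which was not tested.

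**Figure D2:**
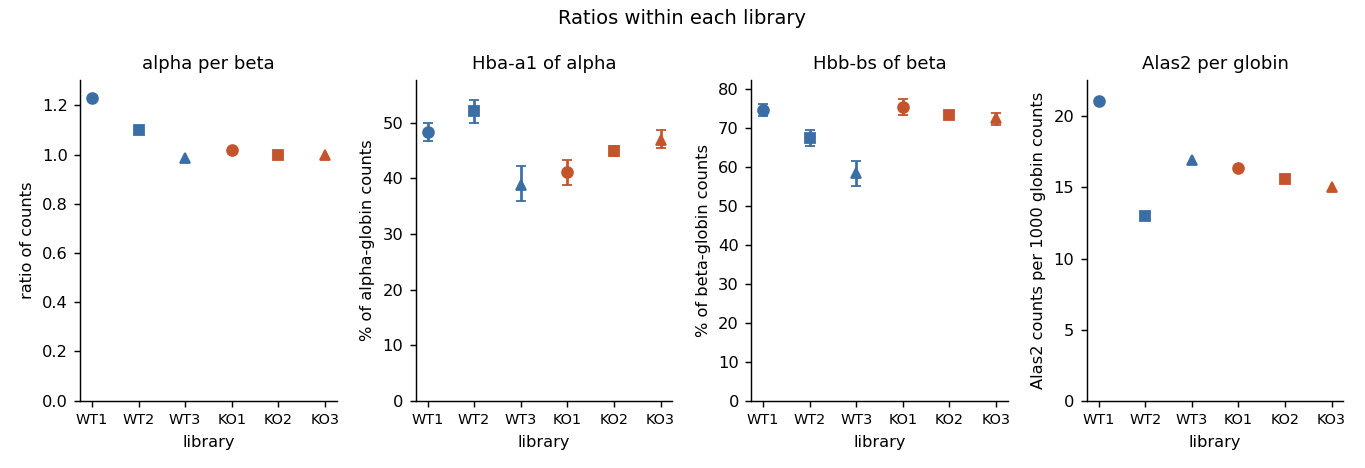
Ratios computed within each library, with axes from 0: alpha per beta counts, the percentage of alpha counts from Hba-a1 and of beta counts from Hbb-bs (bars are 95% Wilson intervals), and Alas2 counts per 1000 globin counts. WT is blue and KO orange, and each ratio varied 1.25-fold to 1.62-fold, with overlapping groups.

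Alas2 (ENSMUSG00000025270, chrX:150547375-150570638, plus strand) encodes the erythroid form of 5-aminolevulinate synthase, which makes the first intermediate of heme. It was at 16.2, 6.53 and 3.85 CPM in WT libraries 1 to 3 and at 6.91, 39.7 and 11.6 CPM in KO libraries 1 to 3. In WT library 3 these were 31 counts, and in KO library 2 they were 327 counts, so all libraries were well above the limit of 3 counts. As for the globins, KO library 2 was the highest, at 2.46 times the next, and WT library 3 the lowest. The means were 8.85 ± 6.47 CPM in WT and 19.4 ± 17.7 CPM in KO (SD, n = 3). The log2 fold change was 1.11 (SE 0.70), with a 95% interval from -0.50 to 2.71 and an edgeR adjusted p of 0.819.

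Set against the globins, Alas2 changed little from library to library. There were 21.1, 13.0 and 16.9 Alas2 counts per 1000 globin counts in WT libraries 1 to 3 and 16.4, 15.6 and 15 in KO libraries 1 to 3, a 1.62-fold range. Its housekeeping counterpart Alas1, which carries out the same step in all other tissues, did not follow. Alas1 lay between 21.7 and 26.4 CPM in WT and between 24.2 and 27.2 CPM in KO. The ratio of Alas2 to Alas1 counts therefore ran from 0.177 in WT library 3 to 1.46 in KO library 2, the only library in which Alas2 had more counts than Alas1.

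The stretches in front of the start sites show motifs known from erythroid promoters. RefSeq promoter sequences (GRCm38.p6) were found for 8 of the 9 genes, all but Fech. The motifs searched on both strands in the 250 bases before the start were TATAA (the core of a TATA box), the CCAAT box, the CACCC box (bound by KLF factors) and the GATAA motif (bound by GATA factors). All 4 globin genes held all 4 motifs, which occur in 22.8%, 33.8%, 52.0% and 22.6% of the 32851 promoters, respectively. Alas2 held all but the CCAAT box. Cpox held the CACCC box and the GATAA motif, Alad, with 2 start sites, held the CCAAT box at both and the CACCC box at 1 of them, and Urod held the CCAAT box alone. The last 130 bases before the start of 4 of the genes that moved together are printed below, 5′ to 3′ on the strand of the gene, with the motifs of either strand in capitals. The GATAA motif of the globin genes lies farther upstream, 182 to 209 bases before the start, and so does the TATAA of Alas2, 207 bases before the start.
Hba-a2, chr11:32296362-32296491, plus strand: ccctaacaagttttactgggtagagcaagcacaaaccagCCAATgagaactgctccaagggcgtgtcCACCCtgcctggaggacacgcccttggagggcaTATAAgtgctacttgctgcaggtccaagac
Hbb-bs, chr7:103827929-103828058, minus strand: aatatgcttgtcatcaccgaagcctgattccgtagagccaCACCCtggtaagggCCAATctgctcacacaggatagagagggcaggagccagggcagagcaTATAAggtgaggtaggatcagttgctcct
Hbb-bt, chr7:103813924-103814053, minus strand: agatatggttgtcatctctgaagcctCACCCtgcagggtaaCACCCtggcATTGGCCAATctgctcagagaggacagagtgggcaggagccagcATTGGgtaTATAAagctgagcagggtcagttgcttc
Alas2, chrX:150547287-150547416, plus strand: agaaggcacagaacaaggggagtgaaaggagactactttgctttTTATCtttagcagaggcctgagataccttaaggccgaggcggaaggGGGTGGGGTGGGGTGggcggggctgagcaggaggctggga

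The alpha genes share a run of 247 bases within the 250 bases searched, so that only Hba-a2 is shown, whereas the longest run shared by the beta genes is 14 bases. In Hbb-bt the capitals ATTGG are the CCAAT box on the other strand. In Alas2 the longest stretch in capitals holds 3 copies of the CACCC box end to end, and both this stretch and the GATAA motif are on the other strand. A match of letters is a description of the sequence and no measurement of binding.

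Alad, Urod, Cpox and Fech carry out later steps of heme synthesis, which all nucleated cells use, and they varied much less than the globins. Alad (ENSMUSG00000028393, chr4:62509169-62519918, minus strand) joins the products of the first step into porphobilinogen. It was at 22, 16.3 and 19.3 CPM in WT libraries 1 to 3 and at 17.3, 27.6 and 18.4 CPM in KO libraries 1 to 3. Its means were 19.2 ± 2.81 and 21.1 ± 5.63 CPM (SD, n = 3), and KO libraries 1 and 3 lay within the WT range. The log2 fold change was 0.12 (SE 0.21), with an edgeR adjusted p of 0.926. Urod (ENSMUSG00000028684, chr4:116989965-116994413, minus strand) encodes uroporphyrinogen decarboxylase. It was at 38.8, 30.8 and 30.9 CPM in WT and at 32.2, 33.4 and 33.6 CPM in KO, with means of 33.5 ± 4.59 and 33.1 ± 0.745 CPM (SD, n = 3). Urod was the steadiest of the 9 genes and the only one for which KO library 2 was not the highest. Its log2 fold change was -0.04 (SE 0.12), with an edgeR adjusted p of 0.958, and its 95% interval ran from -0.31 to 0.24.

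Cpox (ENSMUSG00000022742, chr16:58670292-58717636, plus strand) encodes coproporphyrinogen oxidase, which acts after uroporphyrinogen decarboxylase. It was at 41.5, 40.8 and 39.2 CPM in WT libraries 1 to 3, a narrow range, and at 34.4, 63.5 and 46.7 CPM in KO libraries 1 to 3. KO library 1 lay below and KO libraries 2 and 3 above all WT libraries, and the means were 40.5 ± 1.2 and 48.2 ± 14.6 CPM (SD, n = 3). The log2 fold change was 0.23 (SE 0.20), with an edgeR adjusted p of 0.87. Fech (ENSMUSG00000024588, chr18:64452914-64490251, minus strand) was at 35.3, 28.2 and 22.4 CPM in WT and at 28.3, 44.8 and 28.0 CPM in KO, with means of 28.6 ± 6.45 and 33.7 ± 9.62 CPM (SD, n = 3). WT library 3 was the lowest and KO library 2 the highest, as for the globins, but the range was 2.0-fold. Its log2 fold change was 0.22 (SE 0.23), with an edgeR adjusted p of 0.878. For these 4 genes, the 95% intervals reached at most 0.74 on the log2 scale, where those of the globins and Alas2 reached at least 2.58.

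Per kilobase of merged exons, the globin genes had mean levels of 101 to 210 CPM per kb in WT and 237 to 593 CPM per kb in KO. The enzyme genes ranged from 2.07 (Fech) to 12.9 CPM per kb (Urod) in WT and from 2.44 (Fech) to 12.8 CPM per kb (Urod) in KO. Among the globins in WT the order from low to high was Hbb-bt, Hba-a1, Hba-a2 and Hbb-bs, at 101 ± 29.1, 158 ± 99.2, 206 ± 113 and 210 ± 123 CPM per kb (SD, n = 3). Neighbours in this order differed by less than the SD of the higher gene. Alas2 stood at 3.68 ± 2.69 CPM per kb in WT and at 8.08 ± 7.38 CPM per kb in KO (SD, n = 3). Fech has 13838 merged exon bases from 15 annotated transcripts, which lowers its level per kilobase.

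The spread within a genotype placed the 9 genes in separate ranges. The SD of log2 CPM within the genotypes was 1.26 for Hba-a1, 1.07 for Hba-a2, 1.16 for Hbb-bs, 1.02 for Hbb-bt and 1.17 for Alas2, against a median of 0.191 over the 13024 tested genes. This placed the 5 genes at the 97.9 to 98.9 percentile of all genes. Alad, Cpox and Fech lay between the 68.8 and the 75.3 percentile, and Urod at the 32.7 percentile.

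**Figure D3:**
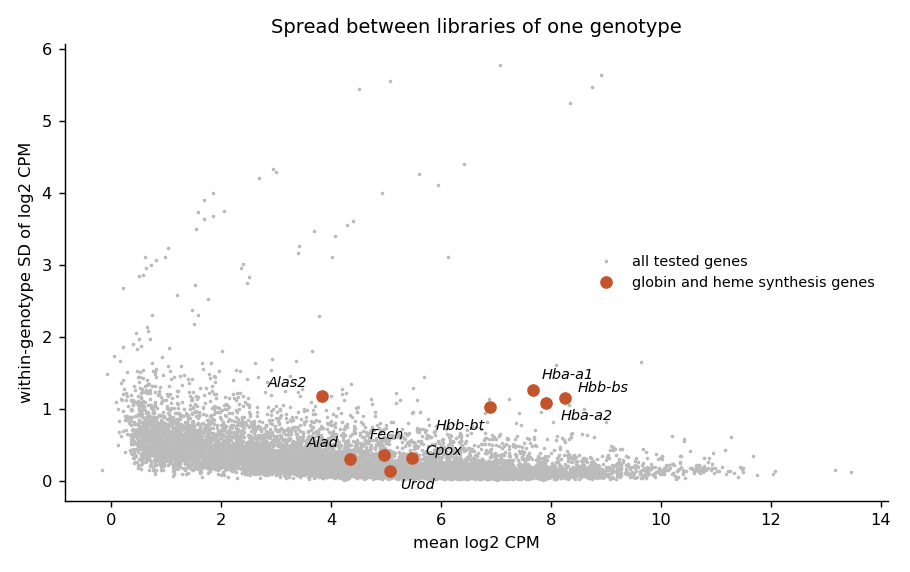
The SD of log2 CPM within the genotypes (vertical) against the mean log2 CPM (horizontal) for the 13024 tested genes (grey) and the 9 globin and heme synthesis genes (orange). The globins and Alas2 lie above the bulk of the genes at their level, and Urod lies within it.

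The size of the differences depended on single libraries, and on KO library 2 the most for all of the genes but Urod. The value of Urod moved most without WT library 1, from -0.04 to 0.075. KO library 2 was the highest for 8 of the 9 genes, and it was the highest for 24.8% of all tested genes. Without it, the log2 fold changes were 0.06 for Hba-a1, 0.26 for Hba-a2, 0.43 for Hbb-bs, 0.15 for Hbb-bt and 0.05 for Alas2. The values of Alad, Fech and Cpox then fell to the other side of 0, at -0.12, -0.04 and -0.01. None of the 9 had an adjusted p under 0.05 in edgeR with or without it. With any other library left out, the values of the globins and Alas2 lay between 0.68 and 1.97. Without WT library 3 they were 0.68 for Hba-a1 and 0.73 for Alas2, and without WT library 1 the value of Alas2 was 1.87. WT library 3, the lowest for 6 of the 9 genes, was the lowest for 18.8% of all tested genes.

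**Figure D4:**
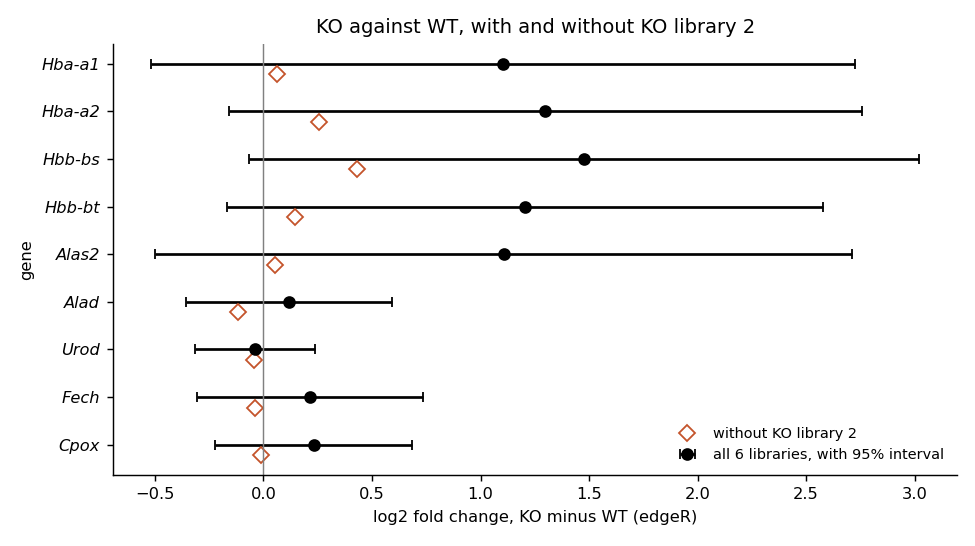
Log2 fold changes, KO minus WT, from edgeR over all 6 libraries (black, bars are 95% intervals) and without KO library 2 (open diamonds). All 9 intervals hold 0, and the values of the globins and Alas2 drop from between 1.1 and 1.48 to between 0.05 and 0.43.

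The genes whose pattern over the 6 libraries was most like that of the summed globins included known genes of the red cell membrane. Likeness was measured as the root mean square difference of centred log2 CPM, over 12898 genes with a mean of at least 10 counts, and the median gene stood at 1.073 on this scale. The nearest genes were Epb42 (0.19), which encodes a protein of the red cell membrane skeleton, Slc6a9 (0.267), a glycine transporter, Samd14 (0.275), Dmtn (0.278), which encodes the actin-binding protein dematin, and Ank1 (0.28), which encodes the erythroid ankyrin. Epb42, for example, was at 4.21, 3.04 and 1.35 CPM in WT libraries 1 to 3 and at 2.34, 13.8 and 3.18 CPM in KO libraries 1 to 3. Alas2 stood at 0.208 from the globins, Fech at 0.775, Cpox at 0.83, Alad at 0.886 and Urod at 1.022. The nearest to Alas2 were Ighv1-54 (0.166), an immunoglobulin variable segment, Fhdc1 (0.217), Epb42 (0.273), Dmtn (0.339) and Igkv10-96 (0.346). Over 6 libraries such likeness is a description of levels and says nothing of shared function.

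The wider list of erythroid markers was also highest in KO library 2 and lowest in WT library 3 for most of its genes, with no gene called. Of 32 such genes with counts, 30 were tested, of which 0 passed the edgeR threshold, 0 were called by DESeq2, 0 had an unadjusted p under 0.05 and 28 had a log2 fold change above 0. The median log2 fold change was 0.43, beside 0.0029 over all tested genes. KO library 2 was the highest for 26 of the 30 tested genes and WT library 3 the lowest for 23. Slc4a1 encodes the anion exchanger of red cells. It had 520, 398 and 79 counts in WT libraries 1 to 3 and 145, 1087 and 419 counts in KO libraries 1 to 3. Epb41 and Sptbn1, the most abundant of the list, are expressed in many cell types and stayed between 196 and 228 and between 387 and 475 CPM.

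With the 4 markers of at least 50 CPM set aside (Sptbn1, Epb41, Xpo7 and Slc4a1), a choice made after the values were seen, the remaining 28 markers summed to 257, 173 and 81.4 CPM in WT libraries 1 to 3 and to 115, 440 and 174 CPM in KO libraries 1 to 3. The range was 5.41-fold, against 11.1-fold for the globins. Per 1000 globin counts these markers gave 336, 345 and 356 counts in WT libraries 1 to 3 and 272, 173 and 224 counts in KO libraries 1 to 3. These groups did not overlap, but no test was made of this ratio, because the list was trimmed. Over all 32 markers the groups overlapped, at 1290, 1980 and 3720 counts per 1000 globin counts in WT and at 2060, 522 and 1300 in KO. They also overlapped for Slc4a1, one of the markers set aside, at 77.3, 89.5 and 42.5 counts per 1000 globin counts in WT and at 40.3, 52.0 and 61.5 in KO.

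Lists of other cells moved with the globins only in part. Red pulp macrophage markers, from the cells that take up old red cells in the spleen, summed to 854, 612 and 591 CPM in WT libraries 1 to 3 and to 1760, 2200 and 794 CPM in KO libraries 1 to 3. All 12 were highest in KO library 2, as were 24.8% of all tested genes. All 12 had a log2 fold change above 0, with a median of 1.25. In edgeR 0 passed and 11 had an unadjusted p under 0.05, and DESeq2 called 4, namely Cd163, Mertk, Slc40a1 and Cd5l. Over all tested genes, 6.25% had an unadjusted p under 0.05 and DESeq2 called 0.43%. KO library 1 was high for the macrophage markers but second lowest for the globins. CD8 T cell markers were lowest in KO library 2, at 2070 CPM against 2650 to 3800 CPM in the other libraries, and all 8 had a log2 fold change below 0, of which 0 passed in edgeR, 0 in DESeq2 and 1 at an unadjusted p under 0.05. B cell markers were between 1300 and 3060 CPM and monocyte and neutrophil markers between 1240 and 2950 CPM, both highest in KO library 2 and nearly as high in WT library 1 and KO library 1. All 8 B cell markers had a log2 fold change above 0 (median 0.29), and so did 11 of the 12 monocyte and neutrophil markers (median 0.67). In both lists 0 passed in edgeR or DESeq2, and 0 and 1 had an unadjusted p under 0.05. The markers of cDC1 cells, the CD8a+ dendritic cells, summed to 940 to 1060 CPM in WT and to 1260 to 1430 CPM in KO. The most abundant of them were Wdfy4 and Irf8. Xcr1 was at 15.2 to 17.5 CPM in WT and at 25.6, 16.6 and 33.4 CPM in KO libraries 1 to 3. Of the 10, 9 had a log2 fold change above 0 and 1 below. In edgeR 0 passed, 6 had an unadjusted p under 0.05 (6.25% of all tested genes) and DESeq2 called 2, Cadm1 and Naaa (0.43% of all genes). Markers of platelets and megakaryocytes, the cells nearest to the erythroid line, summed to between 46.7 and 71.3 CPM, of which Itgb3 gave 30.6 to 42.0 CPM. Of the 7 tested, 6 had a log2 fold change above 0 and the median was 0.18, with 0 calls in edgeR, 0 in DESeq2 and 2 at an unadjusted p under 0.05. Clec1b, at 1.45, had the largest. The part of these cells in the globin values was not tested.

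**Figure D5:**
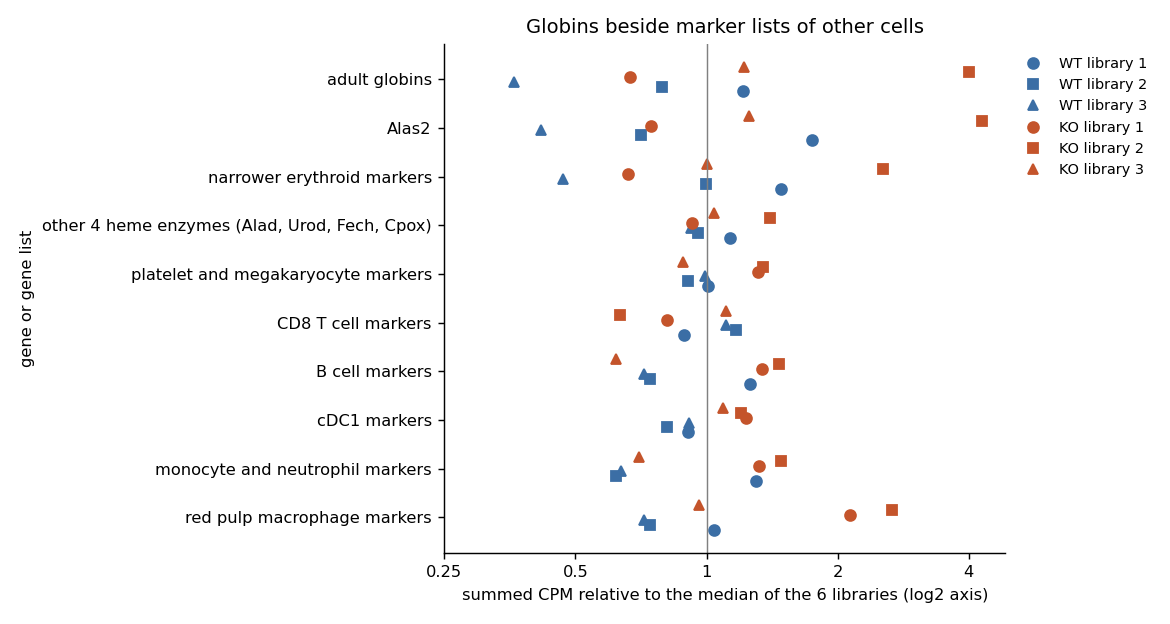
Summed CPM of the adult globins, Alas2, the erythroid markers under 50 CPM, the other 4 heme enzymes and the marker lists of other cells, each relative to its median over the 6 libraries (log2 axis), with WT in blue and KO in orange. KO library 2 stands at 4.01 times the median for the globins and 4.29 times for Alas2, and KO library 1 is high for red pulp macrophage markers (2.14) but not for globins (0.666).

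Among other enzymes of the pathway, Alas1, Uros and Ppox varied between 1.15-fold and 1.25-fold over the 6 libraries. Of these 3 genes, 0 passed in edgeR or DESeq2 and 0 had an unadjusted p under 0.05. Of the 3, Uros alone had groups that did not overlap, a pattern seen for 11.5% of all tested genes. Uros lay between 15.7 and 16.2 CPM in WT and between 16.3 and 18.0 CPM in KO. Ppox, which acts just before ferrochelatase, lay between 64.8 and 76.3 CPM in all libraries. Of the 10 other globin genes found, 5 were listed at 0 in all libraries, namely Hba-x, Hbb-bh2, Hbb-y, Hbb-bh0 and Mb, and none passed the filter. The embryonic beta-like gene Hbb-bh1 was read once in WT libraries 1 and 2 and in KO library 1 and not in the others, which is under the limit of 3 counts. Hbq1b had 1 count in each WT library and 0, 5 and 3 in KO libraries 1 to 3.

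Genes that bring iron to the enzymes and that handle heme afterwards gave no call in edgeR and 2 in DESeq2. Among 16 tested genes of mitochondrial iron and heme transport, 0 passed in edgeR or DESeq2, 2 had an unadjusted p under 0.05 and the median log2 fold change was 0.0. Over all tested genes, 6.25% had an unadjusted p under 0.05 and DESeq2 called 0.43%. Slc25a37 encodes mitoferrin-1, the mitochondrial iron importer of erythroid cells, and was at 138, 106 and 97.4 CPM in WT libraries 1 to 3 and at 142, 207 and 128 CPM in KO libraries 1 to 3. Its partner in the membrane, Abcb10, was at 18.0, 13.0 and 12.3 CPM in WT and at 17, 35 and 19.2 CPM in KO. Both were lowest in WT library 3 and highest in KO library 2, with log2 fold changes of 0.46 and 0.70 and an edgeR adjusted p of 0.786 for each.

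Among 16 tested genes of heme regulation, export and breakdown, 0 passed in edgeR, 4 had an unadjusted p under 0.05, DESeq2 called Cd163 and the median log2 fold change was 0.31. The shares over all tested genes were 6.25% at an unadjusted p under 0.05 and 0.43% in DESeq2. Hmox1, the heme oxygenase that opens the ring, was at 157, 110 and 96.6 CPM in WT libraries 1 to 3 and at 321, 411 and 152 CPM in KO libraries 1 to 3. Cd163, the receptor for hemoglobin bound to haptoglobin, was at 5.01, 10 and 6.02 CPM in WT and at 24.0, 36.3 and 9.10 CPM in KO. For both, KO libraries 1 and 2 were high and KO library 3 was within the WT range, with log2 fold changes of 1.26 and 1.69 and edgeR adjusted p values of 0.61 and 0.654. Among 12 genes of iron uptake and storage, 0 passed in edgeR, 2 had an unadjusted p under 0.05 and DESeq2 called Slc40a1. Slc40a1, the iron exporter ferroportin, was at 89.5, 67.9 and 68.9 CPM in WT and at 209, 256 and 110 CPM in KO. Its groups did not overlap, a pattern seen for 11.5% of all tested genes. Its log2 fold change was 1.32 (SE 0.28), with an edgeR adjusted p of 0.427. Hmox1, Cd163 and Slc40a1 are also in the list of red pulp macrophage markers, and these 3 genes were high in both KO libraries 1 and 2, where the globins and Alas2 were highest in KO library 2 and low in KO library 1.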

How the data were processed

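RNA-seq libraries (SMARTER mRNA kit) of 3 WT and 3 KO samples were used. For each Ensembl gene, the authors deposited unscaled expected counts, which are estimates and can be fractions. The unit was read from the values. Genome builds GRCm38 and mm10 are named in the submitters' processing notes, and the aligner, the counter and the use of strand are not given in the sources used here. Of 44678 gene identifiers, 44121 matched GENCODE M21. Counts were rounded and compared in R 4.3.3 with edgeR 4.0.16 (TMM, filterByExpr at a count of 10 and a total of 15, quasi-likelihood test, Benjamini-Hochberg adjustment, 13024 genes, threshold 0.05). The procedure was tested on simulated data. CPM is the count per 1000000 counts of the library, and log2 CPM used a prior count of 0.5.

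The study states no test for its RNA-seq. The genes and lists were chosen with earlier results of these data known. From each list, genes with an adjusted p under 0.05, the 2 of highest mean and the 2 of largest change could be named, with the 5 genes nearest in pattern to the globins and to Alas2. Hbb-bh1, Hbq1b, Slc4a1, Uros, Xpo7 and genes called by DESeq2 alone were named after their values were seen. Ahsp and Fdx2 were not matched by symbol and were not analysed here, and some genes of the lists are not reported here. Alternatives were DESeq2 1.42.0, upper-quartile normalization, no filter, the replicate number as a block, library sizes without globins, summed gene copies and each library left out in turn.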

Additional observations from a re-analysis of the deposited data

How the results depend on the processing

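None of the 9 genes was called under any of the 12 alternatives, so the count stayed at 0. Of 108 values of single genes, 104 kept their direction and 4 turned it, namely Urod without WT library 1 (0.075) and Alad (-0.117), Fech (-0.038) and Cpox (-0.011) without KO library 2. With a library left out, these log2 fold changes reached -0.107 for Urod, 0.226 for Alad, 0.387 for Fech and 0.411 for Cpox. Those of the other 5 genes ranged from 0.064 to 1.602 (Hba-a1), 0.256 to 1.788 (Hba-a2), 0.429 to 1.966 (Hbb-bs), 0.145 to 1.615 (Hbb-bt) and 0.054 to 1.868 (Alas2), lowest without KO library 2 and highest without WT library 1, or KO library 1 for Hbb-bt. Adjusted p values lay between 0.326 and 1. The mean difference of log2 summed globins was 1.08, and between 0.37 (without KO library 2) and 1.66 (without KO library 1) with a library left out, and 0.60 without WT library 3. That of the log2 ratio of alpha to beta was -0.13, and between -0.21 and -0.04 with a library left out. Over all genes, edgeR made 4 calls, DESeq2 56 and edgeR with no filter 12. With a library left out it made between 2 and 94, the latter without KO library 3, and the cause was not tested.

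With the replicate number as a block, 9 genes were called, none of them a globin or heme gene. Same-numbered libraries correlated at -0.0165, -0.162 and 0.0741 in their deviations, where the other pairs lay between -0.214 and 0.239. By this measure, 0 libraries correlated best with their own number. Whether libraries of the same number were prepared together was not tested. With the near-identical copies summed, the log2 fold changes were 1.21 for the alpha and 1.40 for the beta pair. There were 3 libraries a group. Each globin gene had at least 360 counts in every library, and Alas2 had 31 counts in WT library 3. Whether the number of libraries or the depth limits the fold changes more was not tested.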
